A study of Mus musculus with 6 samples.

Results

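Small nucleolar RNAs (snoRNAs) were represented by every GENCODE mouse gene of type snoRNA whose symbol begins with Snord or Snora: 137 loci from 140 annotation records, among the 55447 genes to which reads were matched. The loci comprised 97 C/D genes (Snord) and 40 H/ACA genes (Snora). The series sequenced small RNA of whole testis from C57BL/6 mice in 6 libraries, each a pool of animals. A pool of a genotype held 7 or 8 mice at 16.5 days post coitum (dpc) and 3 mice at 10 days post partum (dpp). The libraries were Dnmt3L WT and Dnmt3L KO at 16.5 dpc, Dnmt3L WT and Dnmt3L KO at 10 dpp, and Miwi2 WT and Miwi2 KO at 10 dpp, with littermates as controls. Values for all libraries are given below in that order. Dnmt3L assists the enzymes that set new DNA methylation, and MIWI2 (gene Piwil4) is a nuclear PIWI protein of fetal male germ cells; the alleles are not named in the labels. Each group was 1 library, so no difference between groups has a replicate check, and intervals cover counting error only.

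C/D snoRNAs guide 2′-O-methylation and H/ACA snoRNAs guide pseudouridylation, chiefly of ribosomal RNA. A C/D snoRNA has its C box (TGATGA) near the 5′ end and its D box (CTGA) near the 3′ end, with less conserved copies of each, C′ and D′, inside the molecule. An H/ACA snoRNA folds into a pair of hairpins, each followed by a short single-stranded box, H in the middle and ACA at the 3′ end. Most mammalian snoRNAs are processed from introns of host genes, and shorter RNAs cut from them are a known component of small RNA libraries. The annotated genes carried these boxes. CTGA lay within the last 15 nt of 91 of 97 C/D genes and 2 of 40 H/ACA genes, TGATGA within the first 20 nt of 69 C/D genes and 0 H/ACA genes, and ACA within the last 8 nt of 7 C/D and 38 H/ACA genes. C/D genes had a median annotated length of 84 nt (64 to 238 nt) and H/ACA genes one of 132.5 nt (121 to 205 nt).

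The following gene sequences (GENCODE vM21 transcripts, written 5′ to 3′ with T for U) show in capitals the fragment that held the most reads of that gene, and were chosen to cover the kinds of fragment seen: from the 3′ side (Snord104, Snord69), from the 5′ side (Snord52, Snord57), from the interior (Snord118), and from H/ACA genes.
Snord104: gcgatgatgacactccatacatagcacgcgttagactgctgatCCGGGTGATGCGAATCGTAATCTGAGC
Snord52: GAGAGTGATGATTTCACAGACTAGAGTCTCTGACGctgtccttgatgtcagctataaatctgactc
Snord57: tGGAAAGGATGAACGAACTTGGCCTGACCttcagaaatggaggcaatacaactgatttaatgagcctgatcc
Snord69: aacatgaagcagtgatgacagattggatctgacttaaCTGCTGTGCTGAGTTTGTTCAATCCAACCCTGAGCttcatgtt
Snord118: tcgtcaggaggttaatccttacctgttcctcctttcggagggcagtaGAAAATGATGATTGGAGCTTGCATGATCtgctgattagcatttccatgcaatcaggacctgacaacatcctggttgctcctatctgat
Snora41: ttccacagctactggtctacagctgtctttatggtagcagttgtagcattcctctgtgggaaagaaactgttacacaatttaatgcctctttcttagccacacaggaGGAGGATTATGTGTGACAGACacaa
Snora44: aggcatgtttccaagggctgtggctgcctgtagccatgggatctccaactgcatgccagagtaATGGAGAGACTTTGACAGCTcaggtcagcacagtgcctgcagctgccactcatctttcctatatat
Snora36b: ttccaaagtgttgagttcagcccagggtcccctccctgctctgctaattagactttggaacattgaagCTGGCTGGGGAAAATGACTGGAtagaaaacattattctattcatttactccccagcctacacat

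Snord104 lies at chr11:106500993-106501062 on the plus strand of GRCm38, and Snord118 at chr11:69073427-69073561 on the plus strand. Snord52 lies at chr17:34950952-34951017 on the minus strand inside the transcribed region of 1110038B12Rik. Snord57 lies at chr2:130278016-130278087 (plus strand) inside Nop56, the gene of a core protein of C/D particles. Snord69 lies at chr14:31014287-31014366 (minus strand) inside Gnl3, which encodes nucleostemin. Snora41 lies at chr1:63179004-63179135 (plus strand) inside Eef1b2, a translation elongation factor gene, Snora44 at chr4:132309941-132310069 (plus strand) inside Snhg12, and Snora36b at chr1:185242907-185243038 (plus strand) inside Rab3gap2, where it overlaps Mir664. The most frequent last base of C/D reads lay 2 nt after the letters CTGA, though not in every gene, as the fragment of Snord118 shows. In 5 fragments chosen as examples of that end, capitals mark the CTGA nearest the fragment's 3′ end and any TGATGA.
Snord104: ccgggtgatgcgaatcgtaatCTGAgc
Snord52: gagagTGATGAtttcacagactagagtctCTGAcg
Snord57: ggaaaggatgaacgaacttggcCTGAcc
Snord69: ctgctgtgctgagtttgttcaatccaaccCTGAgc
Snord123: gaaaaTGATGAattctggggcgCTGAtt
All 5 stopped 2 nt after CTGA: the fragments of Snord104 and Snord69 after the D box at the 3′ end of the gene, and those of Snord52, Snord57 and Snord123 after an earlier CTGA in the place of the D′ box. Those of Snord52 and Snord123 began 5 nt before TGATGA.

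Fragments of C/D genes outnumbered those of H/ACA genes in every library. C/D genes had 2404, 3087, 1466, 983.6, 4655 and 4679 RPM (reads per 1000000 reads of the library), and H/ACA genes 83.78, 80.83, 155.4, 170.7, 124.5 and 147.9 RPM. C/D genes thus held 96.6%, 97.4%, 90.4%, 85.2%, 97.4% and 96.9% of the reads of these 137 genes, with exact 95% intervals no wider than 84.8% to 85.6%. Another 1367 genes of type snoRNA, with other symbols, are in neither class here. They had 1172, 1226, 1394, 924, 2891 and 2953 RPM, so these shares are not shares of all snoRNA reads. The 2 Dnmt3L libraries of 10 dpp had the lowest C/D levels and the highest H/ACA levels of the 6. Per gene and 100 nt of annotated length, the C/D level was 31.99, 42.9, 18.5, 12.6, 62.9 and 62.7 RPM and the H/ACA level 1.56, 1.52, 2.92, 3.24, 2.35 and 2.80 RPM. Together the 137 genes supplied 0.115% to 0.483% of all reads, or 744685 reads in 7407 distinct sequences.

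**Figure D1:**
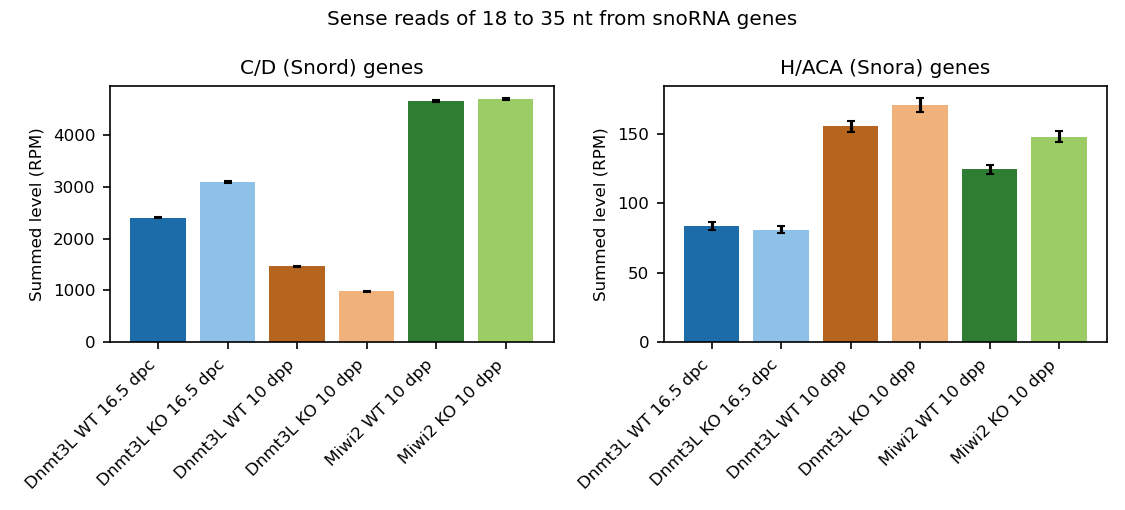
Summed level of sense reads of 18 to 35 nt from C/D genes (left) and H/ACA genes (right), in RPM, for each of the 6 libraries; error bars are 95% counting intervals. C/D levels run from 983.6 to 4679 RPM and H/ACA levels from 80.83 to 170.7 RPM, and the 2 Dnmt3L libraries of 10 dpp are lowest in the left panel and highest in the right one.

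Library totals were 28701563 to 47232494 reads, of which 85.3% to 95.6% had 18 to 35 nt, and 3 reads, the floor used here, were 0.0635 to 0.105 RPM. The libraries differed in read length as a whole: of their reads of 18 to 35 nt, 21.5%, 23.1%, 1.40%, 0.124%, 13.3% and 16.9% had 29 nt or more, so long reads were nearly absent from both Dnmt3L libraries of 10 dpp. With 1 library a group, this difference and those of genotype and age cannot be told apart where these libraries enter. Of the miRNA genes of testis, Mir871 had 1358 to 17613 RPM, Mir881 7.26 to 1040 RPM and Mir202 15.1 to 213 RPM. Mir741 had 0.148 to 49.7 RPM, Mir743 0.445 to 31.1 RPM and Mir883a 0.720 to 72.5 RPM. The liver miRNA gene Mir122 had 0 to 3.32 RPM and the neuronal Mir124a-1 0.0159 to 0.206 RPM. Of the muscle miRNA genes, Mir1a-1 had 0 to 0.565 RPM but Mir133a-1 8.37 to 118 RPM, and the erythroid Mir451a had 11.2 to 26.2 RPM. Not every marker of another tissue was thus low. Sense reads of Dnmt3l numbered 105, 295, 1, 0, 7 and 4 and those of Piwil4 14, 7, 9, 2.06, 2 and 3 (reads shared between genes were divided), and with the deleted parts not given in the sources used here, they check no label.

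The classes differed in fragment length. C/D reads had a median length of 29, 31, 27, 27, 29 and 30 nt, and H/ACA reads one of 22, 23, 21, 21, 22 and 22 nt. The shorter class was H/ACA in all 6 libraries. Reads of 18 to 23 nt made up 6.16%, 3.82%, 24%, 25.3%, 6.11% and 6.11% of C/D reads and 67.6%, 55.7%, 80.04%, 85.5%, 72.8% and 74.0% of H/ACA reads. The same lengths made up 42.6%, 37.1%, 78.4%, 85.4%, 61.4% and 59.2% of all reads of 18 to 35 nt, so that C/D reads held a lower share of these lengths than the library in each of the 6. H/ACA fragments held a higher share of these lengths than the library in every library; in the Dnmt3L KO of 10 dpp the shares differed least, 85.5% against 85.4%, and without Snora36b the H/ACA share there was 84.3%.

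C/D read lengths had several peaks. The length of 28 nt held 21.4%, 14.9%, 28.6%, 27.98%, 24.1% and 20.6% of C/D reads and was the most frequent in 5 libraries; in the Dnmt3L KO of 16.5 dpc it was 35 nt, with 19.0%. Reads of 34 and 35 nt together were 26.9%, 34.1%, 1.57%, 0.687%, 23.1% and 23.5% of C/D reads. The peak at the upper end was thus present in 4 libraries and nearly missing from the Dnmt3L pair of 10 dpp, as were long reads of any kind. Reads of 36 to 50 nt from C/D genes also occurred, so the lengths here describe the sequenced fraction and not all snoRNA fragments of the tissue.

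**Figure D2:**
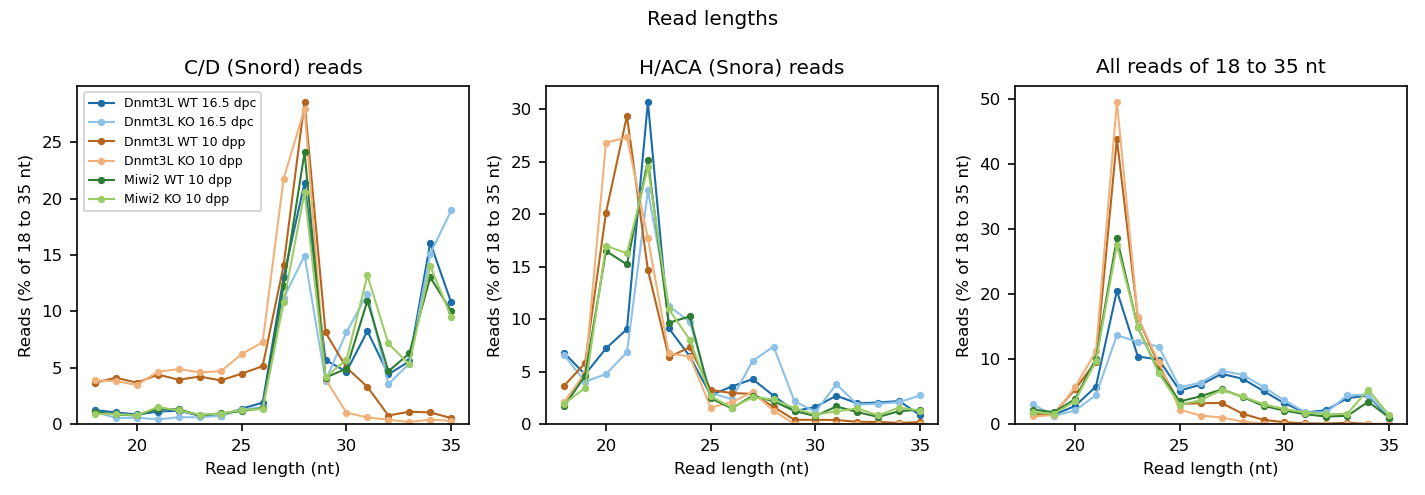
Share of reads at each length from 18 to 35 nt (percent of reads of 18 to 35 nt) for C/D genes, H/ACA genes and all reads, with 1 line per library. C/D reads peak at 27 to 28 nt and, except in the 2 Dnmt3L libraries of 10 dpp, again at 31 nt and at 34 to 35 nt; H/ACA reads peak at 20 to 22 nt.

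C/D reads ended most often at one distance from the box motif. Of C/D reads, 70.8%, 79.2%, 49.7%, 49.1%, 76.1% and 77.0% had their last base exactly 2 nt after a CTGA, whereas 3.19% of all windows of 18 to 35 nt in the C/D genes end there. The neighbouring distance of 1 nt held 1.91% to 3.01%, and the distance of 5 nt, a lesser peak, 3.43% to 5.93%. Of H/ACA reads, 0.422%, 0.0524%, 0.710%, 0.837%, 0.696% and 0.563% ended 2 nt after a CTGA, against 0.543% of their windows. This end was frequent among C/D reads in all 6 libraries, and least so in the Dnmt3L pair of 10 dpp. For C/D reads of 29 to 35 nt, 77.8%, 82.6%, 76.8%, 78.7%, 83.0% and 84.2% ended at this place, so that the libraries stood closer in this class. They did not at 24 to 28 nt, where the shares were 69.6%, 79.03%, 47.9%, 52%, 75.7% and 75.1%. For C/D reads of 18 to 23 nt the shares were 14.8%, 21.1%, 31.6%, 33.3%, 17.6% and 18.6%. Without Snord104, the gene with the most such reads, 65.8%, 75.6%, 47.5%, 42.5%, 71.6% and 73.9% of C/D reads ended there.

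The end 2 nt after a CTGA occurred at the D box and at earlier copies of the letters. It followed the last CTGA of the gene in 46.9%, 49.1%, 31.3%, 37.3%, 45.1% and 45.7% of C/D reads, and an earlier CTGA in 23.9%, 30.04%, 18.4%, 11.8%, 31.0% and 31.4%. Many C/D reads also began a few nt before a TGATGA, though the share of windows that begin there was not computed. Reads beginning 3 to 6 nt before the first TGATGA were 28.1%, 27.4%, 45.5%, 38.9%, 26.5% and 24.8% of C/D reads, over all C/D genes, including those without a TGATGA. This share was highest in the Dnmt3L pair of 10 dpp. Part of it was the main fragment of Snord118, which begins 5 nt before an internal TGATGA. That fragment had 153.9, 61.4, 220.8, 134.6, 225.4 and 191.9 RPM, of C/D levels of 2404, 3087, 1466, 983.6, 4655 and 4679 RPM. The share without Snord118 was not computed.

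Relative to the annotated ends, C/D reads beginning within 5 nt of the first base were 29.95%, 34.7%, 25.6%, 20.1%, 35.6% and 36.2%, and those ending within 5 nt of the last base 51.7%, 50.2%, 39.3%, 44.9%, 45.3% and 46.2%; 9.80% of windows lie at each end. H/ACA reads beginning within 5 nt of the first base were 18.5%, 21.7%, 14.4%, 9.43%, 16.8% and 12.8%, and those ending within 5 nt of the last base 32.1%, 45.9%, 48.5%, 50.2%, 37.5% and 36.8%, against 5.20% of windows at each end. Both classes thus had more reads at the 3′ end than at the 5′ end in all 6 libraries. For C/D reads a large part came from Snord104, whose leading fragment ends on its last base. Past its midpoint it had 365, 479, 71.7, 124, 745 and 566 RPM, of C/D levels of 2404, 3087, 1466, 983.6, 4655 and 4679 RPM. The order of the C/D ends without Snord104 was not computed. H/ACA fragments were mostly from the 3′ side of the gene: 20.3%, 23.5%, 20.01%, 10.4%, 18.1% and 14.8% of reads were centred before the midpoint, against 39.9%, 38.7%, 51.2%, 42.4%, 45.2% and 45.3% of C/D reads.

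Near the 3′ end of the gene, H/ACA reads ended on the annotated last base or about 4 nt before it. The annotated last base ended 22.4%, 35.7%, 11.6%, 12.9%, 15.5% and 16.9% of H/ACA reads, and the positions 3 to 5 nt before it ended 7.92%, 7.99%, 36.1%, 36.3%, 19.9% and 18.3%. The first place held more reads in both libraries of 16.5 dpc and the second in all 4 libraries of 10 dpp. This order rested on Snora41, whose main fragment stops at base 128 of 132 and which had 4.77, 4.42, 47.5, 46.7, 11.6 and 13.4 RPM. Without Snora41, the annotated last base ended 23.7%, 37.6%, 16.7%, 17.8%, 17% and 18.5% of H/ACA reads and the positions 3 to 5 nt before it 2.69%, 3.27%, 9.42%, 13.4%, 12.03% and 10.6%, so that the first place held more in all 6. The share on the last base in turn rested partly on Snora24 in the Dnmt3L KO libraries: without it, 20.5%, 25.7%, 11.1%, 8.29%, 15.7% and 17.4% of H/ACA reads ended there. An end inside the gene was also frequent. The place 42 nt before the last base, where the fragment of Snora36b printed above stops, ended 29.2%, 18.3%, 4.97%, 6.72%, 20.7% and 20.5% of H/ACA reads, nearly all of them from Snora36b, and was the most frequent single place in 3 libraries, the Dnmt3L WT of 16.5 dpc and both Miwi2 libraries.

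**Figure D3:**
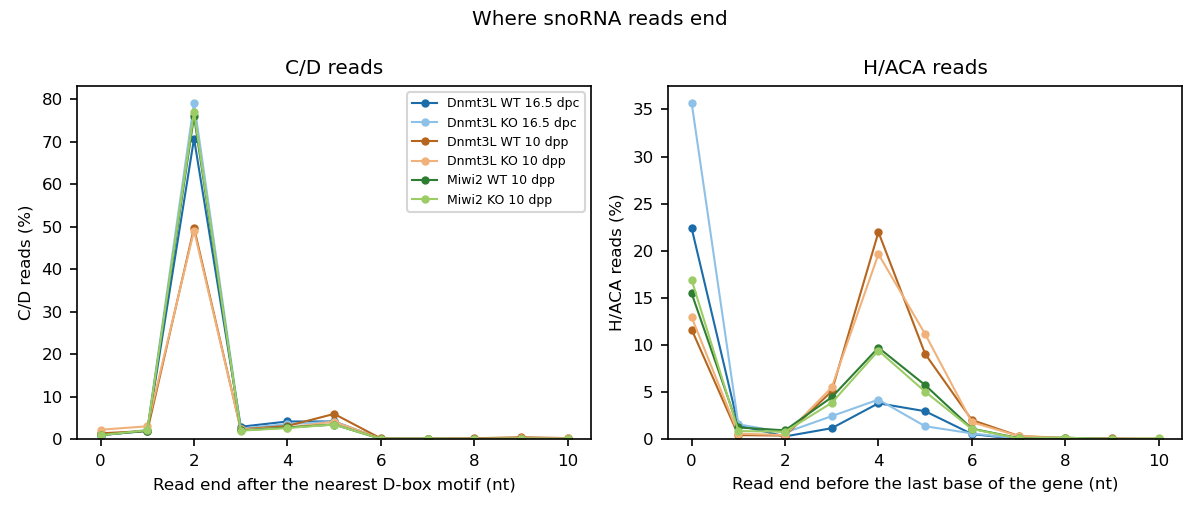
Left, share of C/D reads (percent) by the distance in nt from the nearest CTGA upstream of the read's last base to that base; right, share of H/ACA reads (percent) by the distance in nt from the read's last base to the last annotated base of the gene; 1 line per library. C/D reads have their highest point at 2 nt (49.1% to 79.2%) and a low second one at 5 nt (3.43% to 5.93%). Within the distances plotted, H/ACA reads have peaks at 0 nt and 4 nt.

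Many C/D genes gave fragments mainly from one side. Of the 77 C/D genes with at least 100 reads over the 6 libraries, 20 had over 80% of their reads centred before the gene's midpoint, 25 had under 20%, and 32 lay between. In 38 of the 77, over 50% of reads ended 2 nt after a CTGA, and in 21 a single fragment held over 50% of the gene's reads (median over the 77 genes, 30.9%). Of the 26 H/ACA genes with at least 100 reads, 3, 16 and 7 fell in the same 3 classes of position, 17 had over 50% of reads of 18 to 23 nt, and in 7 a single fragment held over 50% of reads. The median length of the leading fragment was 29 nt in C/D genes and 22 nt in H/ACA genes. The remaining 20 C/D and 14 H/ACA genes were under 100 reads, and Snora35 had no read.

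Snord104 had the highest level of all members, 365, 479, 72.8, 124, 746 and 567 RPM (mean 561 RPM per 100 nt), all but entirely from the 3′ side. Over the 6 libraries (mean RPM), 0.127% of its reads were centred before the midpoint, 98.7% ended 2 nt after a CTGA, and 55.97% were the fragment of bases 44 to 70 printed above. It was lowest in the Dnmt3L pair of 10 dpp. Snord49a had 121, 330, 32.2, 19.8, 281 and 408 RPM (276 RPM per 100 nt), and Snord95, inside the ribosomal scaffold gene Rack1, had 164, 191, 15.7, 11.8, 398 and 392 RPM (287 RPM per 100 nt). Outside the Dnmt3L pair of 10 dpp both were read mainly as fragments of 29 to 35 nt from the 3′ side, with 85.3% to 96.3% and 97.4% to 98.5% of reads at these lengths. In that pair 13.5% and 20.6% of Snord49a reads and 46.7% and 25.1% of Snord95 reads had these lengths, and 56.6% and 47.3% of Snord49a reads were centred before the midpoint. All reads of Snord95 also occur in another annotated transcript, so that their source cannot be told apart by sequence. Such sharing was not limited to Snord95. Of the genes with at least 100 reads, 23 of 77 C/D and 14 of 26 H/ACA genes had under 50% of reads found in no other gene. Snord32a, inside the ribosomal protein gene Rpl13a, had 174, 139, 7.75, 4.01, 110 and 187 RPM. Of its reads, 98.5%, 98.07%, 2.03%, 1.74%, 94.65% and 96.8% had 29 to 35 nt, so the long fragment that held nearly all reads of 4 libraries was nearly missing from the Dnmt3L pair of 10 dpp.

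Snord57 was read from the 5′ side in all 6 libraries and Snord52 in 4. Snord52 had 113, 375, 11.7, 5.68, 154 and 130 RPM, and 95.6%, 99.5%, 30.8%, 34.4%, 97.5% and 93.9% of its reads were centred before the midpoint. Over the 6 libraries 90.1% was the fragment of bases 1 to 35, which had 2.29 and 1.60 RPM in the Dnmt3L pair of 10 dpp. The Dnmt3L KO of 16.5 dpc was highest and the Dnmt3L pair of 10 dpp lowest. Snord57 had 82.8, 87.3, 26.5, 31.5, 268 and 208 RPM, and over the 6 libraries 88.0% of its reads were the 28-nt fragment of bases 2 to 29. Snord123 (62.4, 54.7, 47.5, 30, 157 and 182 RPM) had 75.6% to 98.98% of its reads centred before the midpoint. Snord88c (59.1, 55.1, 5.004, 6.17, 139 and 247 RPM) had 91.3% to 93.9% there in 4 libraries, and 39.1% and 34.5% in the Dnmt3L pair of 10 dpp.

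Snord118 encodes U8, a C/D RNA needed for pre-rRNA cleavage. It had 176, 68.1, 262, 163, 267 and 233 RPM (144 RPM per 100 nt), and 84.5% of this was the internal 28-nt fragment of bases 48 to 75, which begins 5 nt before TGATGA and contains no CTGA. Only 0.0855% of its reads ended 2 nt after a CTGA. Its level in the Dnmt3L KO of 16.5 dpc was the lowest of the 6. In the Dnmt3L libraries of 10 dpp, where Snord95 and Snord52 were lowest, it had 262 and 163 RPM, and 1.92% and 0.985% of its reads had 29 nt or more.

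Of the H/ACA genes, Snora36b had 32.5, 19.8, 13.2, 18.8, 31.7 and 38.7 RPM (19.5 RPM per 100 nt), Snora41 the levels given above (16.2 RPM per 100 nt), and Snora44 7.69, 3.43, 23.1, 42.6, 19.6 and 25.5 RPM (15.8 RPM per 100 nt). The leading fragment of Snora36b, bases 69 to 90, also lies in the miRNA gene Mir664, and miRNA genes shared 30.5%, 22.4%, 9.84%, 11.7%, 22.1% and 20.6% of all H/ACA reads, against at most 0.0531% of C/D reads. The leading fragment of Snora44, of 20 nt, lies just past the middle of the gene. Snora24 had 6.04, 18.6, 10.4, 18.1, 12.02 and 9.67 RPM, and 48.5% of its reads were the first 24 bases. The 5 highest H/ACA genes made up 68.6% of the class level and the 5 highest C/D genes 40.0% of theirs (mean RPM).

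**Figure D4:**
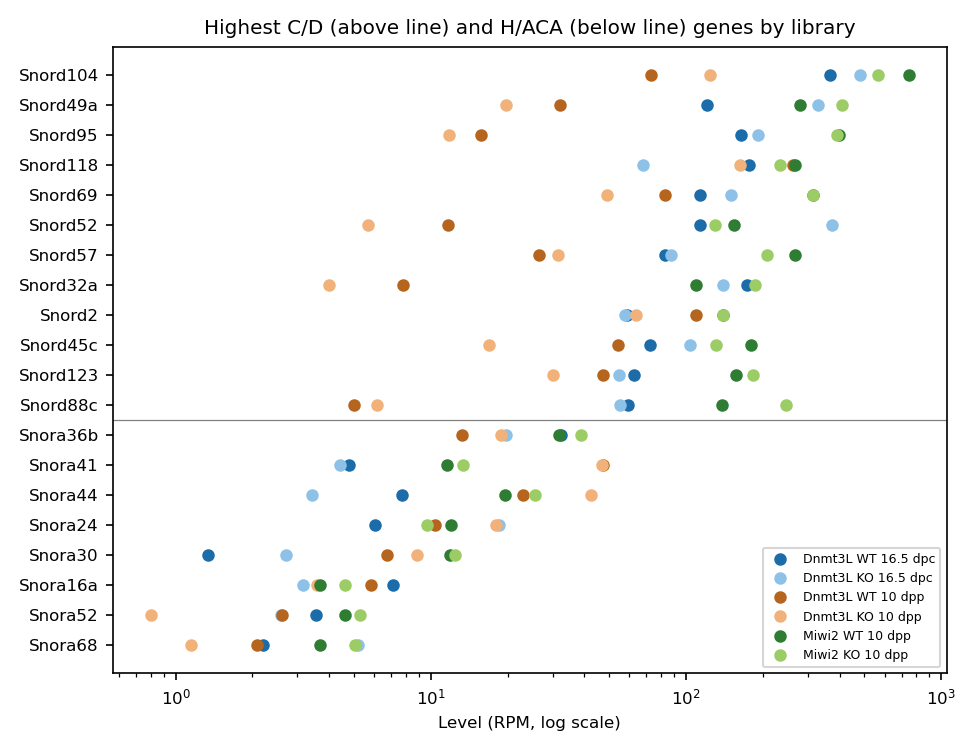
Level in RPM (log scale) of the 12 highest C/D genes (above the line) and 8 highest H/ACA genes (below it), with 1 point per library. All the C/D genes plotted except Snord118 and Snord2 are lowest in the 2 Dnmt3L libraries of 10 dpp, and Snora41 is not lowest there.

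The side from which a C/D gene was read depended on the library for some genes. Among 66 C/D genes with at least 100 reads in at least 2 libraries, 16 had most reads from the 5′ side in one library and from the 3′ side in another; without the 2 Dnmt3L libraries of 10 dpp this was 5 of 64. Snord69 had 69.4, 122, 0.578, 0.627, 194 and 167 RPM centred past the midpoint, where its reads had a median length of 35 nt. Before the midpoint, where the median was 27 nt, it had 44.1, 28.1, 82.3, 48.3, 120 and 148 RPM. The long fragment was thus nearly missing from the Dnmt3L pair of 10 dpp, while the short one was not. Snord45c was the mirror case, with 61.3, 91.5, 14.9, 3.35, 163 and 115 RPM on the 5′ side (median 31 nt) and 11.1, 12.6, 39.2, 13.6, 17.3 and 15.3 RPM on the 3′ side (median 25 nt). Snord2, inside Eif4a2, had 22.0, 31.9, 1.18, 0.174, 46.6 and 37.1 RPM on the 5′ side (35 nt) and 36.7, 25.8, 108, 63.5, 92.5 and 102 RPM on the 3′ side (29 nt). These 3 genes were chosen after their values were seen, and the 16 were picked by a change of side in these same libraries. The count over the 16 that follows is thus no separate support, and the same count over the other C/D genes was not made. Snord50a and Snord50b, both among the 16, share reads and are not independent. Of the 16 genes, 10 had their lowest levels on the longer-fragment side in both Dnmt3L libraries of 10 dpp, 2 had them on the shorter-fragment side (Snord88c on both), and 5 on neither. Snord60, among the 5, had 16.1 RPM on its 3′ side (median 30 nt) in the Dnmt3L WT of 10 dpp, where the other 5 libraries had 3.48 to 16.7 RPM.

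To compare libraries gene by gene, a gene was called where its log2 ratio of RPM exceeded the 95th percentile of the absolute ratio between the WT libraries of 10 dpp (log2 2.08, or 4.22-fold), among genes with at least 100 reads in the 2 libraries. This limit comes from 2 libraries that differ in read length, and it is not a test. The 5 comparisons share libraries, among them the Dnmt3L WT of 10 dpp, so they are not independent of each other and are given side by side.

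Between Dnmt3L KO and WT at 16.5 dpc, 0 of 80 snoRNA genes passed the limit, where 0.497% of all 8658 genes did (0.162% higher and 0.335% lower). Summed C/D fragments were 1.28 times as high in the KO (counting interval 1.27 to 1.30) and summed H/ACA fragments 0.965 times (0.921 to 1.01; log2 0.05 with TMM factors). In RNA of a whole organ, a different number of cells and a different level per cell cannot be told apart. As a sum, the C/D excess lay in long reads: the KO had 0.964 times the WT level at 18 to 28 nt and 1.54 times at 29 to 35 nt, against 0.902 and 1.09 times for the reads of all genes. It was uneven over lengths, from 0.870 times at 29 nt to 2.255 times at 35 nt, and over genes. The 5′ side of Snord52 had 108 RPM in the WT and 373 in the KO, and the 3′ side of Snord49a 111 and 327 RPM. Snord104, read mainly at 27 and 28 nt, was also higher. The median log2 ratio of C/D genes was -0.04. Single genes spread widely: 14 were at least 2-fold higher and 12 at least 2-fold lower, or 32.5%, where 5.86% of all genes were past 2-fold (2.17% higher and 3.68% lower). The median log2 ratio was -0.06 for the members and -0.10 for all genes. With TMM factors or DESeq2 size factors, under which the limit was lower (log2 1.57 and 1.58), 7 members were higher and 1 lower past it, or 10% of members, where 1.34% and 1.28% of all genes were past it.

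Snord50b and Snord50a, neighbours inside Snhg5, had 13.3 and 13.1 RPM in the WT of 16.5 dpc and 52.0 and 50.9 RPM in the KO (log2 1.97 and 1.96). They share all their reads with other annotated genes, so the 2 values are not independent. Restricted to 18 to 28 nt, the ratios were 0.74 and 0.60. Snord52 was next highest (113 against 375 RPM, log2 1.73), and at 18 to 28 nt its ratio turned to -0.73. The largest differences in the other direction were Snord53, inside Wdr43 (2.36 against 0.720 RPM, log2 -1.71), Snora7a, inside Rpl32 (2.12 against 0.741 RPM, -1.52) and Snord64 (12.4 against 4.62 RPM, -1.43). Snord118 was at 0.387 times its WT level.

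Between Dnmt3L KO and WT at 10 dpp, 0 snoRNA genes were higher and 4 of 81 lower past the limit, where 63.2% of all 4994 genes were past it, nearly all of them lower (0.421% higher and 62.8% lower). Past 2-fold were 1 member higher and 21 lower, where 83.4% of all genes were (2.38% higher and 81.0% lower). The median log2 ratio was -0.69 for the members and -2.52 for all genes, so snoRNA fragments were lower by less than the median gene. With TMM factors the median of all genes was -0.56 and that of the members turned to 1.28. Past the limit were 32 members higher and 1 lower, or 40.7%, where 21.8% of all genes were. With DESeq2 size factors the medians were -0.68 and 1.15, with 28 members higher and 1 lower, or 35.8%, where 24.25% of all genes were past the limit. The direction for snoRNAs in this pair is therefore set by the scaling. Summed C/D fragments were 0.671 times the WT level in RPM (0.661 to 0.680; log2 1.39 with TMM factors) and H/ACA fragments 1.10 times (1.06 to 1.14). By length, C/D fragments were 0.780 times at 18 to 28 nt and 0.231 times at 29 to 35 nt, against 1.08 and 0.0965 times for the reads of all genes.

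The 4 genes past the limit were Snord72, inside Rpl37 (4.60 RPM in the WT and 0.383 in the KO, log2 -3.58), Snord100, inside Rps12 (12.5 and 1.19 RPM, -3.40), Snord70, inside Nop58 (8.75 and 1.53 RPM, -2.51), and Snora31, inside Tpt1 (8.30 and 1.46 RPM, -2.50). The first 3 were read mostly at 29 to 35 nt (95.6%, 98.6% and 67.0% of reads), the lengths that made up 1.40% of the WT library and 0.124% of the KO library; Snora31 was not (9.32%). The part of this difference in length was not tested. The largest ratios upward were Snora20 (2.26 and 4.60 RPM, log2 1.03), Snora44 (23.1 and 42.6 RPM, 0.89) and Snora24 (10.4 and 18.1 RPM, 0.81), all H/ACA genes and none past the limit.

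Between Miwi2 KO and WT at 10 dpp, 0 of 88 snoRNA genes passed the limit, where 2.47% of all 9417 genes did (2.16% higher and 0.319% lower). Summed C/D fragments were 1.01 times the WT level (0.999 to 1.01; log2 -0.01 when scaled to reads of 18 to 35 nt) and H/ACA fragments 1.19 times (1.14 to 1.23). The members' median log2 ratio was close to 0 and their range -0.98 to 1.35; the median of all genes was -0.33. Past 2-fold were 2 members, Snora78, inside Snhg9 (2.60 and 6.64 RPM, log2 1.35), and Snord88a (98.2 and 201 RPM, 1.03), or 2.27%, where 14.5% of all genes were (5.72% higher and 8.78% lower). The lowest were Snord1b (6.59 and 3.35 RPM, -0.98), Snord61, inside Rbmx (3.73 and 2.20 RPM, -0.76), and Snord14e, inside Hspa8 (2.39 and 1.44 RPM, -0.73). The Miwi2 pair thus had the narrowest range of member ratios of the 5 comparisons in RPM.

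Between 10 dpp and 16.5 dpc in the Dnmt3L WT, 8 of 86 snoRNA genes were higher and 9 lower past the limit (19.8%), where 29.7% of all 7936 genes were past it, 12.5% higher and 17.2% lower. Past 2-fold were 25 members higher and 24 lower, or 57.0%, where 61.0% of all genes were (29.1% higher and 31.9% lower). With TMM factors 16 members were higher and 15 lower past the limit, or 36.05%, where 42.8% of all genes were. With DESeq2 size factors 18 and 12 were, or 34.9%, where 42.7% of all genes were. C/D fragments were 0.610 times the level of 16.5 dpc (0.604 to 0.616), with 1.10 times at 18 to 28 nt and 0.219 times at 29 to 35 nt, against 1.90 and 0.165 times for the reads of all genes. H/ACA fragments were 1.85 times (1.78 to 1.93), and 3 of the 8 higher genes were H/ACA: Snora41 (4.77 RPM at 16.5 dpc and 47.5 at 10 dpp, log2 3.32), Snora30 (1.35 and 6.72 RPM, 2.32) and Snora31 (1.44 and 8.30 RPM, 2.53). The 9 lower genes were all C/D, led by Snord32a (174 and 7.75 RPM, -4.49), Snord88c (59.1 and 5.004 RPM, -3.56) and Snord19, inside Gnl3 (80.4 and 7.25 RPM, -3.47). When reads were restricted to 18 to 28 nt, Snord32a and Snord19 turned to 1.52 and 1.08, and Snord88c was at -0.38. Snora41 (3.32) and Snord104 (-2.33) were the same at those lengths.

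Between the WT libraries of 10 dpp, C/D fragments differed at both ranges of length, and more at 29 to 35 nt. The Miwi2 WT had 1.82 times the Dnmt3L WT level at 18 to 28 nt and 8.63 times at 29 to 35 nt. For the reads of all genes it had 0.682 and 5.78 times. From the Dnmt3L WT to the Miwi2 WT, 17 of 89 snoRNA genes were higher past the limit and 1 lower (20.2%), where 4.60% of all genes were higher and 0.398% lower, together 5% by construction of the limit. Past 2-fold were 38 members higher and 6 lower, where 41.3% of all genes were (39.5% higher and 1.89% lower). The median log2 ratio was 0.71 for the members and 0.84 for all genes, and -0.15 and -0.01 with TMM factors, under which 15 members were higher and 10 lower. In RPM, all 17 higher genes were C/D, led by Snord1a (2.60 and 105 RPM, log2 5.33), Snord88a (2.98 and 98.2 RPM, 5.04) and Snord88c (5.004 and 139 RPM, 4.79). The lower gene was Snora31 (8.30 and 1.44 RPM, -2.52), followed by Snora41 (-2.03) and Snord68 (-1.64), which did not pass the limit. At 18 to 28 nt the ratios were -0.06 for Snord1a, 1.31 for Snord88a and 1.75 for Snord88c, and 2 members were higher and 5 lower than the limit computed at those lengths. Snord104 (3.36) and Snord57 (3.33), whose main fragments had 27 and 28 nt, were as high in the Miwi2 WT at those lengths as over all lengths.

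A split of the genes by fragment length, measured in a library outside each comparison, is given as a description only. It covers fewer genes than the comparisons, such as 59 of 88 in the Miwi2 pair and 60 of 89 between the WT libraries. Genes with over 50% of reads at 29 to 35 nt in the Dnmt3L WT of 16.5 dpc had a median log2 ratio of 1.92 between the WT libraries of 10 dpp (31 genes, 13 higher past the limit), and the other genes one of 0.48 (29 genes, 2 higher). Between 10 dpp and 16.5 dpc, with lengths from the Miwi2 WT, the medians were -0.44 (36 genes, 3 higher and 8 lower) and 0.54 (38 genes, 4 higher and 1 lower). In the Dnmt3L KO against WT of 10 dpp they were -0.85 (33 genes) and -0.47 (38 genes), and at 16.5 dpc 0.39 (36 genes) and -0.20 (37 genes). In the Miwi2 pair the medians were -0.10 (31 genes) and -0.07 (28 genes). Across genes, the share of long reads and the ratio had a Pearson r of 0.24 (Dnmt3L, 16.5 dpc, 73 genes), -0.46 (Dnmt3L, 10 dpp, 71 genes), 0.11 (Miwi2, 59 genes), -0.49 (age, 74 genes) and 0.55 (WT libraries, 60 genes). The genes of a comparison share both libraries and are not independent replicates.

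**Figure D5:**
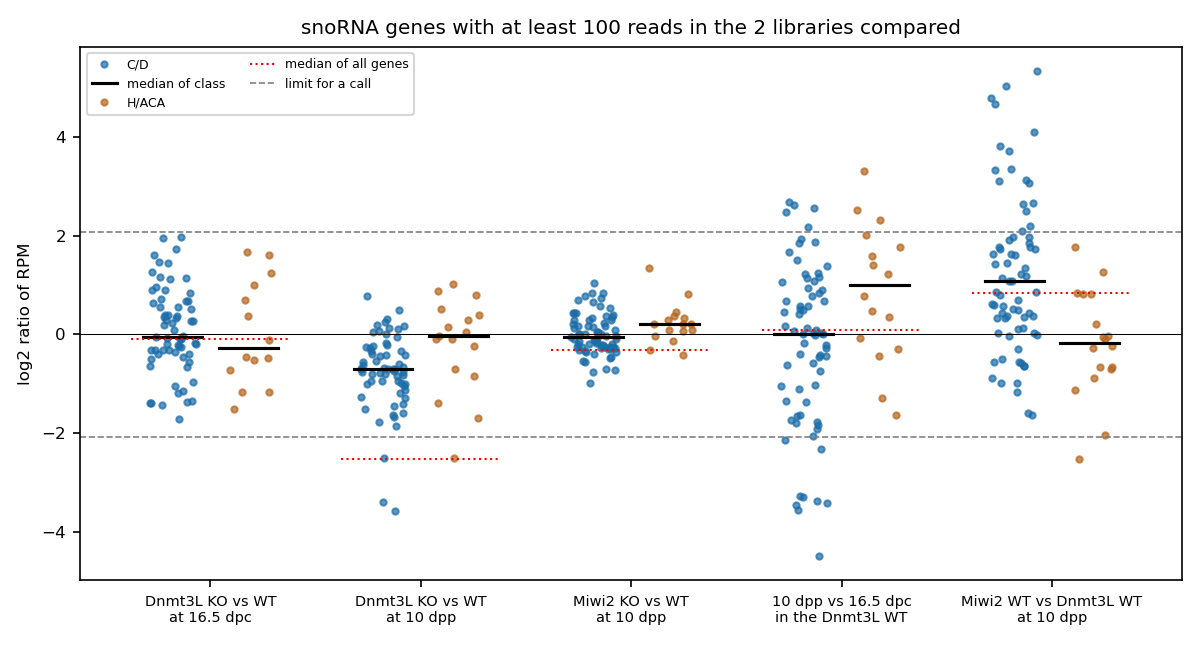
Log2 ratio of RPM for each snoRNA gene with at least 100 reads in the 2 libraries, for 5 comparisons that share libraries; black bars are class medians, red dotted lines the median of all genes, and dashed lines the limit of log2 2.08. Points of the Miwi2 pair lie within -0.98 and 1.35, while C/D genes reach 5.33 between the WT libraries; with TMM factors the members' median in the Dnmt3L pair of 10 dpp turns from -0.69 to 1.28.

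Groups of snoRNAs by locus and role were described by counts. The imprinted Snurf-Snrpn cluster, of which several C/D families are known from brain, had 19 members, and 1 of them, Snord64, reached 100 reads over the 6 libraries. Snord64 had 12.4, 4.62, 9.09, 3.31, 12.3 and 11.1 RPM, the lowest values being those of the 2 Dnmt3L KO libraries. Its log2 ratio was -1.43 at 16.5 dpc and -1.46 at 10 dpp, within the limit in both, and 0.40 at 16.5 dpc when reads were restricted to 18 to 28 nt. In the Miwi2 pair it was -0.15. No gene of the annotation used here carried a symbol of the Dlk1-Dio3 families.

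The snoRNAs of pre-rRNA cleavage had 8 members, 6 of them with at least 100 reads, and together 194, 76.0, 291, 178, 284 and 248 RPM, of which Snord118 held most. Their median log2 ratio was -1.37 in the Dnmt3L pair of 16.5 dpc (5 genes compared, 0 past the limit), against -0.10 for all genes. In the Dnmt3L pair of 10 dpp, the Miwi2 pair, with age and between the WT libraries it was -0.70, -0.20, 0.50 and -0.58, against -2.52, -0.33, 0.08 and 0.84, with 0 of 5 past the limit in each. Of all genes, 0.497% and 63.2% passed the limit in the Dnmt3L pairs of 16.5 dpc and 10 dpp, and 2.47% in the Miwi2 pair. With age 29.7% did, and between the WT libraries 4.60% were higher and 0.398% lower past it. Of the 5 cleavage genes compared, Snord14c and Snord14d share their leading fragments and are not independent. Snord47, Snord80 and Snord78, inside Gas5, a growth-arrest transcript, had together 18.6, 25.2, 35.4, 14.6, 58.1 and 51.02 RPM. Of these, 0 of 3 passed the limit in any of the 5 comparisons, where 0.497% to 63.2% of all genes did. With 3 genes, 0 passing does not set the group apart from the lower of these shares. Of the 13 genes with 100 reads inside Snhg transcripts, 2 of the 10 compared were past the limit between 10 dpp and 16.5 dpc, where 12.5% of all genes were higher. They were Snord50a and Snord50b (log2 2.57 and 2.63), which share their reads and are not independent. No gene of the Snhg group passed in the other 4 comparisons, where 0.497% to 63.2% of all genes did. The group inside ribosomal protein genes had 32 members, 29 of them with 100 reads, and together 394.5, 361.6, 131.6, 82.5, 456 and 573 RPM. Of these, 2 of 21 were lower past the limit in the Dnmt3L pair of 10 dpp (Snord72 and Snord100), where 62.8% of all genes were. With age 1 of 22 was higher and 2 lower, where 12.5% and 17.2% of all genes were. Between the WT libraries 5 of 23 were higher, where 4.60% of all genes were, with a median of 0.83 beside 0.84 for all genes. In the other 2 comparisons 0 passed, where 0.497% (Dnmt3L, 16.5 dpc) and 2.47% (Miwi2) of all genes did.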

How the data were processed

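Each of the 6 libraries was deposited as raw counts, a read sequence with the number of reads of exactly that sequence; these deposited counts have no header. Per the labels, testis RNA was extracted with Trizol and made into TruSeq small RNA libraries of an 18 to 35 nt fraction, and the submitters' processing notes name the build mm9. Neither a trimming step nor an aligner is stated there.

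The members, lists and comparisons were chosen with earlier results of these data known. Reads of 18 to 35 nt were matched without mismatch, on the sense strand, to the longest GENCODE vM21 transcript of each of 55447 genes, with coordinates on GRCm38. Overlapping records of the same symbol were merged (140 records, 137 loci). A read found in several Snord or Snora genes was divided evenly over them, and one found in such a gene and in another gene was given to the former. Levels are reads per 1000000 reads of the whole library (RPM). Intervals are exact at 95% and cover counting error alone: reads were amplified by PCR without molecular identifiers and are not independent molecules.

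With 1 library per group no test was made. A gene was called where its log2 ratio was past the 95th percentile of the absolute ratio between the WT libraries of 10 dpp (100 reads at least in the 2 libraries). Named genes were the 12 C/D and 8 H/ACA genes of highest mean RPM, the 3 largest ratios in each direction of each comparison, and the lists by locus and role, given by counts with examples; further genes past the limit were named after their values were seen, as were the genes whose fragments change side. Alternatives were other scalings (reads of 18 to 35 nt; TMM factors from edgeR 4.0.16; DESeq2 1.42.0 size factors), reads of a single gene, reads of 18 to 28 nt, distinct sequences counted once, no count minimum, a 2-fold limit, other end tolerances and leaving out reads of miRNA genes. Matching was tested on simulated reads. Python 3.11.15, pandas 2.3.3, scipy 1.17.1 and R 4.3.3 were used.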

Additional observations from a re-analysis of the deposited data

Results flagged for a closer look

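The summed C/D level stood on opposite sides of the WT in the Dnmt3L line at its 2 ages: the KO had 1.28 times the WT level at 16.5 dpc and 0.671 times at 10 dpp. The difference was not tested, since each group is 1 library, and with TMM factors both were higher in the KO (log2 0.46 and 1.39).

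C/D reads beyond the lengths analysed, of 36 to 50 nt, were present in every library at 39.9, 173, 3.97, 24.6, 454 and 771 RPM in the order of the report, above the floor of 3 reads. They were highest in the Miwi2 pair and lowest in the Dnmt3L pair of 10 dpp, where reads of 36 to 50 nt made up 0.0160% and 0.0361% of all reads, against 3.54% to 6.94% in the other 4 libraries. H/ACA reads of these lengths had 2.01, 2.99, 0.105, 0.174, 3.91 and 8.11 RPM. No comparison of the report uses them.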

How the results depend on the processing

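No paired analysis was possible because each group is 1 library. Calls depended on the limit, which ran from log2 1.18 to 2.23 over the settings. Members higher and lower past the limit were 0 and 0 (Dnmt3L, 16.5 dpc), 0 and 4 (Dnmt3L, 10 dpp), 0 and 0 (Miwi2), 8 and 9 (10 dpp against 16.5 dpc), and 17 and 1 (Miwi2 WT against Dnmt3L WT). With TMM factors the counts that moved by over 1.5 times were 7 and 1, 32 and 1, 16 and 15 in the first, second and age comparison, and 10 lower between the WT libraries. With DESeq2 size factors these were 7 and 1, 28 and 1, 18 higher with age, and 13 lower between the WT libraries. A 2-fold limit gave 14 and 12, 1 and 21, 2 higher (Miwi2), 25 and 24, and 38 and 6. Without a count minimum 1, 11 and 4 were lower (Dnmt3L at 16.5 dpc, at 10 dpp, and between the WT libraries), 1 higher (Miwi2) and 17 higher with age. Of all genes, 1.12%, 20.5%, 2.42%, 15.9% and 4.98% were then past the limit in either direction, in the order of the 5 comparisons above. Reads of a single gene left 4 higher with age, where 37.3% of all genes were past the limit in either direction. At 18 to 28 nt, 1, 1 and 1 were lower (both Dnmt3L pairs and age), and 2 higher and 5 lower between the WT libraries. With distinct sequences 0 were lower in the Dnmt3L pair of 10 dpp and with age, and 0 higher and 10 lower between the WT libraries. Only 11, 13 and 16 members were compared there, and 38.5%, 66.4% and 5.01% of all genes were past the limit.

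Gene ratios reversed at 18 to 28 nt, where the fewer lengths are the change made: with age, Snord19 1.08, Snord32a 1.52, Snord52 1.28 and Snord95 0.99; between the WT libraries, Snord1a -0.056, Snord32a -0.37, Snord52 -0.98 and Snord95 -0.31. Distinct sequences reversed Snord19 (1.02), Snord32a (1.15) and Snord95 (1.18) with age, and Snord32a (-0.92), Snord49a (-1.32), Snord57 (-1.33) and Snord95 (-0.59) between the WT libraries; the cause was not tested. Of the named gene ratios that could be computed, 31 of 118 changed sign at 18 to 28 nt, 24 and 25 of 122 with TMM factors and DESeq2 size factors, 22 of 31 with distinct sequences, 1 of 122 when scaled to 18 to 35 nt and 0 of 83 with reads of a single gene.

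The C/D share of the reads of the 137 genes was 96.8% (median over the 6 libraries, as for the shares that follow). It was 97.9% with reads of a single gene, 93.5% at 18 to 28 nt, 85.1% with distinct sequences and 97.6% without reads of miRNA genes. C/D reads at the 5′ end were 32.3%, and 26.2%, 22.5% and 26.6% under the first 3 of these, 24.1% with a tolerance of 2 nt and 34.3% with 10 nt. H/ACA reads at the 3′ end were 41.7%, and 37.2% at 18 to 28 nt, 43.8% with distinct sequences, 18.1% with a tolerance of 2 nt and 49.6% without reads of miRNA genes. Reads of 18 to 23 nt were 6.13% of C/D and 73.4% of H/ACA reads, 5.95% and 74.8% with reads of a single gene, and 29.2% and 49.2% with distinct sequences. Leaving out the gene with most such reads, an alternative chosen after seeing the data, is given in the report. Depth limits the genes under 100 reads, and no setting supplies the missing replicates.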
